A study of Mus musculus with 6 samples.

Results

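Il17a, Il17f, Il21, Il21r and Il17ra were followed on Illumina bead arrays across the culture of mouse Th17 cells. These 5 genes of 28902 named on the array were taken by name, in any case or under an older synonym, from the table of signals without normalization. They are read by 7 of its 45281 probes: 1 probe each for Il17a, Il17f, Il21 and Il17ra, and 3 probes for Il21r.

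All libraries came from CD4+ T cells of mice aged 6 weeks of the strain labelled RAG1- BW TRP-1 TCR, so the day 0 cells carry the same RAG1 deficiency and the same TRP-1 T cell receptor transgene as the later ones. Day 0 cells were naive and not yet activated, and the other libraries are Th17 cells 2, 4, 7, 12 and 18 days after activation with TRP-1 peptide. Each time point has 1 library, so no difference below has a replicate check and none was tested. The labels do not give the promoter that drives the transgene, the polarizing cytokines, the number of animals pooled, or whether cells were stimulated again before RNA was taken.

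IL-17A and IL-17F are secreted as homodimers or as a heterodimer, and act through a receptor of IL-17RA paired with IL-17RC, found mostly on epithelial, stromal and myeloid cells, where they induce neutrophil-attracting chemokines and antimicrobial proteins. IL-21 is made by activated CD4+ T cells, signals through IL-21R and the common gamma chain to STAT3, and is known to act back on Th17 cells. The transcription factors RORalpha, STAT3, BATF and IRF4 are among the known regulators of the Il17a and Il17f locus.

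In RefSeq, Il17a and Il17f are neighbours on chromosome 1, on opposite strands and with no annotated gene between them, Il21 lies on chromosome 3 and Il21r on chromosome 7. The promoters of 4 of the 5 members matched the RefSeq table of GRCm38.p6. They are shown because Il17a, Il17f and Il21 were called higher than day 0 on days 2, 4 and 7 by the rule given below. Il21r, close to background, was called on none of these days. Each run holds the 250 bases before the annotated start, 5′ to 3′ on the gene's own strand. Capitals mark the nuclear receptor half-site AGGTCA, the AP-1 motif TGANTCA and the TATA box TATAAA, on either strand and with no overlap between them. The windows are chr1:20730655-20730904 on the plus strand for Il17a, chr1:20784271-20784520 on the minus strand for Il17f, chr3:37232637-37232886 on the minus strand for Il21, and chr7:125603179-125603428 on the plus strand for Il21r.
Il17a: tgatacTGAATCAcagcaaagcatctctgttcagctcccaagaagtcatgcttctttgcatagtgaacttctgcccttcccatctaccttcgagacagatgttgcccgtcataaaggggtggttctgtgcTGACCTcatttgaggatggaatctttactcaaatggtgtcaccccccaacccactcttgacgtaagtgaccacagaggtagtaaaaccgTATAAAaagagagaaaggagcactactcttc
Il17f: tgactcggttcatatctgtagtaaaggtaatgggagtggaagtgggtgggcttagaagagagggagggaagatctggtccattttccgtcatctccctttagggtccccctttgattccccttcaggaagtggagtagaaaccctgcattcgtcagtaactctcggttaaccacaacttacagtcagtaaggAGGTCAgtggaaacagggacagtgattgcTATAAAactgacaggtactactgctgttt
Il21: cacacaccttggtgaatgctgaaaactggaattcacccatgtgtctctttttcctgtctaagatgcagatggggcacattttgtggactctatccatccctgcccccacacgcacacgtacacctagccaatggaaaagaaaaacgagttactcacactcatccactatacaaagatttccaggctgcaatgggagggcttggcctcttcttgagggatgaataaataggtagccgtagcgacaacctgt
Il21r: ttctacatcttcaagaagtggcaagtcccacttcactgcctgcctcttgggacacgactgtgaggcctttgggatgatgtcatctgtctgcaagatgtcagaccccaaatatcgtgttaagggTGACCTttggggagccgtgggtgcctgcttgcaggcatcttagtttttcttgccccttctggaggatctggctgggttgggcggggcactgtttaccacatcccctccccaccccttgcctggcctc
The nuclear receptor half-site was found once in the Il17a window, on the opposite strand 120 to 115 bases before the start, once in the Il17f window 58 to 53 bases before it, once in the Il21r window 127 to 122 bases before it, and not in the Il21 window. It occurs in 14.0% of 32851 promoter windows of the same length. The AP-1 motif was found in the Il17a window, 244 to 238 bases before the start, and in 6.75% of all windows. A TATA box lay 31 to 26 bases before the Il17a start and 29 to 24 bases before the Il17f start, and 12.4% of all windows hold one. Of the other motifs searched, the STAT motif TTCNNNGAA was in none of the 4 windows and in 7.02% of all, and the NFAT core GGAAA was found 2 times for Il17f and 3 times for Il21, and in 55.6% of all. These are matches of letters and show no binding.

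Levels below are log2 intensities after background correction and quantile normalization, and a probe was detected where its detection p was below 0.01. Detected probes made up 30.2% to 31.5% of each array, and the lowest normalized log2 level of a detected probe was 4.88 to 4.97. A gene was called higher or lower where its brightest probe differed at least 2-fold and the brighter library detected it. Where the lower of the pair was undetected, the fold was taken against that lowest detected level and is given as "at least". As a guide to disagreement between probes, 2398 pairs of probes for the same gene differed in their log2 change between days with an SD of 0.241 to 0.435. Both probes of a pair were detected in all 6 libraries and read on the same arrays. The SD therefore leaves out any error that an array or library shares.

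The labelled cell type was checked first. All 13 T cell identity genes were detected in all 6 libraries, and of the B cell markers only Cd79b was detected. The library labelled naive CD4+ also carried erythroid, macrophage and neutrophil transcripts, and so did days 2, 4 and 7 and, with lower sums, day 12. The summed intensity of 9 erythroid markers was 60755 on day 0, 22942 on day 2, 993 on day 4, 451 on day 7, 81 on day 12 and 38 on day 18. That of 10 macrophage markers was 5460, 5625, 1965, 292, 76 and 89 over the 6 days in order, and that of 9 neutrophil markers 10143, 30140, 10089, 1752, 557 and 38. Single markers did not all follow these sums. On day 2 against day 0, 2 of 10 detected macrophage markers were higher and 5 lower, with a median log2 difference of -0.86. Of 8 detected neutrophil markers 5 were higher and 2 lower, with a median of 3.27. Of all genes 7.47% were higher and 8.97% lower. These sums changed over the same days as the cytokines, and their part in the cytokine levels was not tested. Of 7 markers of gamma delta T and type 3 innate lymphoid cells, which also make IL-17, 4 were found on the array by name. Trdc, Tcrg-C1 and Scart1 were not. Sox13 and Zbtb16 were not detected in any library, Blk was detected on days 0 and 2, and Kit, also made by progenitors and mast cells, in all 6. Kit stood at log2 levels of 10.78, 9.45, 8.25, 7.44, 7.01 and 8.35, and the part of such cells in the cytokine levels was not tested. In such bulk RNA, fewer cells that make a transcript and less of it per cell cannot be told apart.

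Il17a, the founding cytokine of the family, had signals of 89.6 on day 0, 1237.6 on day 2, 1765.5 on day 4, 650 on day 7, 93.4 on day 12 and 84.4 on day 18. The transcript was thus detected on days 2, 4 and 7 and on none of the others, and days 12 and 18 returned to the range of day 0. Normalized log2 levels were 4.30, 10.25, 10.57, 9.05, 4.41 and 4.27. Against day 0, Il17a was at least 41.6-fold higher on day 2, at least 51.6-fold higher on day 4 and at least 18.1-fold higher on day 7. Days 2 and 4 lay within 1.24-fold of each other. From day 4 to day 7 the level was 2.86-fold lower, and from day 7 to day 12 it was at least 18.0-fold lower.

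Il17f, its closest relative and neighbour in the genome, gave signals of 90.7, 12515.5, 14261.3, 6870, 141 and 85.2 over the same days. Unlike Il17a it was still detected on day 12, and only days 0 and 18 lacked it. The normalized log2 levels were 4.33, 13.73, 13.79, 12.65, 6.08 and 4.30, where the brightest probe of each array stood at 14.87, so the peak days lie near the top of the scale. Against day 0 the gene was at least 463-fold higher on day 2, 482-fold on day 4, 219-fold on day 7 and 2.3-fold on day 12, each as a lower bound. The log2 difference between days 4 and 2 was 0.06. The level then was 2.2-fold lower on day 7 than on day 4, and 95.1-fold lower on day 12 than on day 7. This last step was measured on both sides, since Il17f was detected on both days. By day 18 it was at least 2.16-fold lower than on day 12. Without background correction the log2 difference of day 12 from day 0 was 0.46 and that of day 18 from day 12 was -0.43. With an offset of 50 these were 0.68 and -0.64, all under 2-fold. With arrays scaled to T cell identity genes, the day 12 difference from day 0 was 0.33.

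Il21 gave signals of 88.8, 176, 398.4, 227.9, 87.8 and 85.7, with detection on days 2, 4 and 7, the same days as Il17a. Its log2 levels were 4.28, 6.83, 8.24, 7.19, 4.25 and 4.32. It was at least 3.87-fold higher than day 0 on day 2, at least 10.3-fold on day 4 and at least 4.97-fold on day 7. Without background correction its day 2 difference was 0.87 log2 units, under 2-fold, and that of day 18 against day 2 was -0.84. Il21 was the one cytokine of the 3 that was called between days 4 and 2, at 2.66-fold higher. It was 2.07-fold lower on day 7 than on day 4 and at least 4.94-fold lower on day 12 than on day 7. The day 7 step missed 2-fold with an offset of 50, at -0.90, and without background correction, at -0.77. On day 2, Il21 was at 1.41 log2 units under its own day 4 level, where Il17a was at 0.31 and Il17f at 0.06. Whether these steps differ between the genes cannot be tested with 1 library a day.

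**Figure D1:**
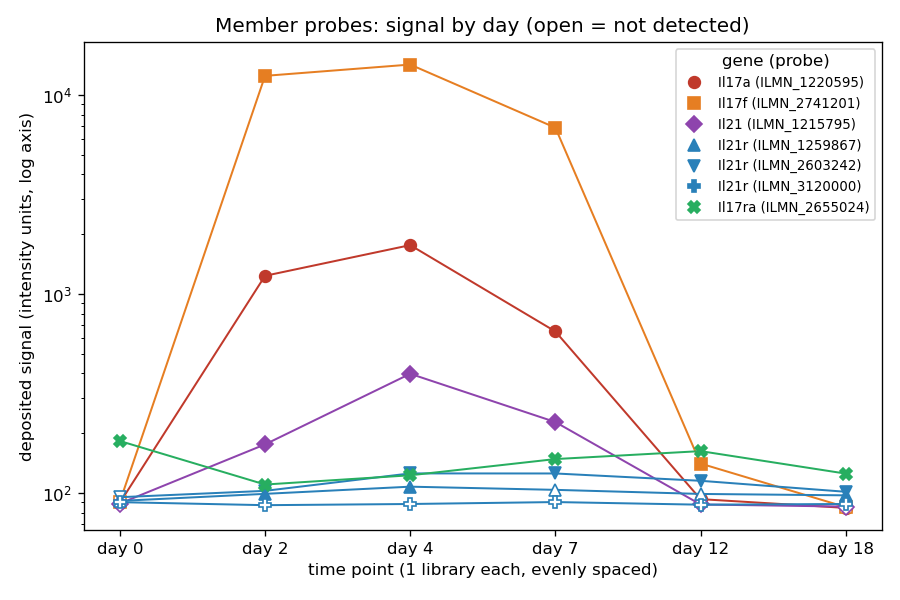
Signals without normalization (log axis, arbitrary intensity units) of all 7 probes of the members at each time point, 1 library per point and evenly spaced, with filled points detected and open points not detected. Il17a, Il17f and Il21 are high on days 2, 4 and 7, of these only Il17f is detected on day 12, and the Il21r and Il17ra probes stay within a narrow band.

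The authors' deposited normalized intensities come from the same arrays, so they are no independent check. These intensities gave the same order of days for the 3 cytokines where detected. They were 0.4, 1204.4, 1499.4, 514.7, 3.8 and -0.6 for Il17a, 1.4, 13538.5, 14134.8, 6402.6, 51.6 and 0.3 for Il17f, and -0.3, 97.9, 286.5, 130.1, -1.8 and 1.0 for Il21. The order of days 2 and 4 depends on the scaling. T cell identity genes were themselves higher on day 4 than on day 2, with a median log2 difference of 0.55. When arrays were scaled to them, the day 4 minus day 2 difference became -0.41 for Il17a and -0.76 for Il17f, and 0.76 for Il21, which was then under 2-fold. The Il17f difference, near 0 to begin with, was also -0.03 under median scaling and -0.01 under reference gene scaling. The fall from day 4 to day 7 was called for all 3 cytokines under T cell identity scaling, at -1.89, -1.42 and -1.36. Under scaling to reference genes it was called for Il17a alone, 1 of the 3.

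**Figure D2:**
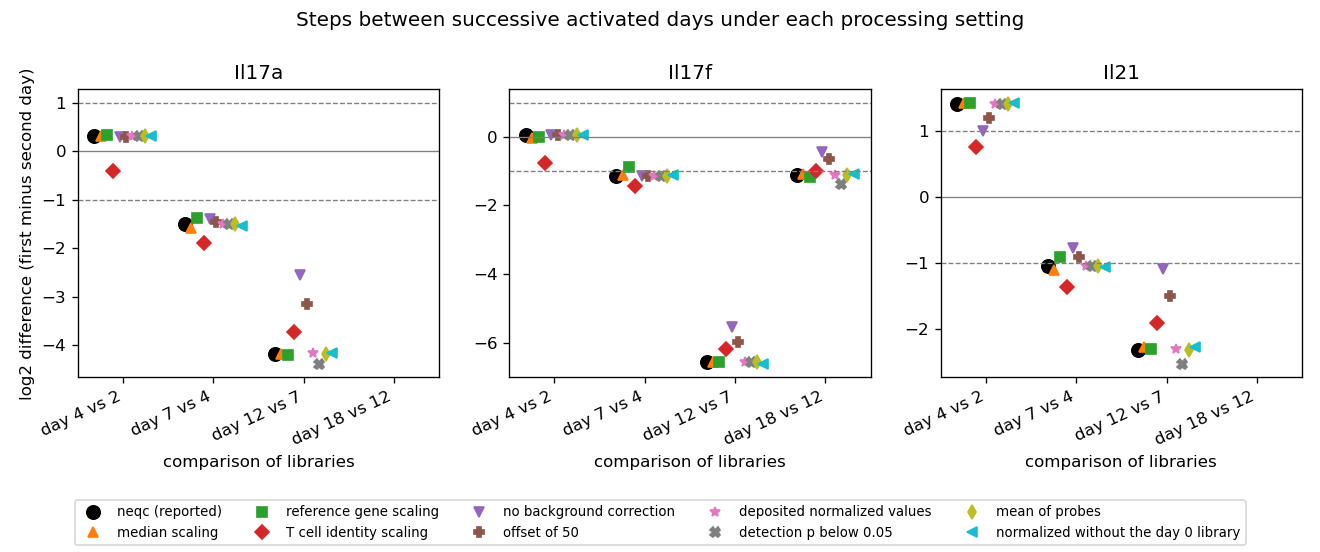
Log2 difference between successive libraries for Il17a, Il17f and Il21 under each normalization (1 point per setting, with the bound used where a library did not detect the gene, and dashed lines at 2-fold). The steps from day 4 to 7 and from day 7 to 12 are below 0 under every setting shown, while the step from day 2 to 4 changes sign under T cell identity scaling for Il17a and Il17f and lies near 0 for Il17f under the other settings. No value is drawn for Il17a and Il21 from day 12 to 18, where neither day detected them.

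IL-17RA, encoded by Il17ra, is the shared signalling chain of the IL-17 receptors. Its signals were 183, 110.6, 123.1, 148.5, 162.8 and 125.5, and it was detected in all 6 libraries. The log2 levels were 6.45, 5.42, 5.61, 6.13, 6.48 and 6.22, lowest on days 2 and 4 and back near the day 0 level on day 12. Il17a and Il17f were highest on days 2 and 4, while Il21 was lower on day 2 than on days 4 and 7. Il17ra was called only on day 2, at 2.04-fold lower than day 0, just past the limit, and it was 1.79-fold lower on day 4. The day 2 difference was -0.47 log2 units without background correction and -0.66 with an offset of 50, both under 2-fold. The day 0 library also held the macrophage, neutrophil and erythroid transcripts given above, and myeloid cells carry IL-17RA. Their part in its day 0 level was not tested. With arrays scaled to T cell identity genes, its log2 difference from day 0 was -1.73, -2.04, -1.76, -1.25 and -1.51 on days 2, 4, 7, 12 and 18, and it was called lower on each. Under that scaling 2547, 6137, 7521, 6501 and 6239 of 11954 genes were called lower on these days. The medians of all detected genes were -0.46, -1.07, -1.34, -1.12 and -1.09, so these calls are not particular to Il17ra.

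IL-21R, the private chain of the IL-21 receptor, is read by 3 Il21r probes that disagreed on detection. The brightest gave signals of 95.5, 102.8, 125.8, 125.7, 115.5 and 101.7, with detection in every library but day 0. Its log2 levels were 4.48, 5.10, 5.69, 5.62, 5.39 and 5.34, and the largest lower bound against day 0 was 1.76-fold on day 4, so no comparison was called. With a detection p below 0.05, which lowers the detection limit, the bounds on days 4 and 7 were 1.09 and 1.02 log2 units, just past 2-fold. A second probe gave 91.5, 99.3, 107.9, 104, 99.2 and 97.6 and was detected on days 2, 4 and 18. The third was not detected in any library. The positions of these probes in the transcript are not given in the sources used here. All 3 lie close to background, where these arrays resolve little.

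Counted over the 5 members, 3 were higher and 1 lower on day 2 than on day 0, where 7.47% of all 11954 genes detected in at least 1 library were higher and 8.97% lower. On day 4 against day 0, 3 were higher and 0 lower, against 8.10% and 9.44% of all genes. On day 7 the counts were 3 and 0, against 8.88% and 9.35%. On day 12, Il17f alone was higher and 0 members lower, where 7.19% and 7.75% of genes were called. By day 18 no member was called against day 0, where 7.93% were higher and 8.69% lower.

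Between successive activated libraries fewer genes were called than against day 0. Day 4 against day 2 called 1 member, Il21, higher and 0 lower, against 1.91% and 2.28% of genes. The 3 cytokines were all lower on day 7 than on day 4, where 2.43% of genes were lower and 2.53% higher. The same 3 were lower on day 12 than on day 7, where 2.90% were lower and 2.28% higher. Il17f was the 1 member lower on day 18 than on day 12, against 2.27% of genes lower and 1.31% higher. On day 18 against day 2 the 3 cytokines were lower and no member was higher, against 7.95% and 8.90% of genes. The comparisons with day 0 share that library, and each middle day enters several steps.

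Of the other IL-17 ligands, Il17b, Il17c, Il17d and Il25 were not detected in any library, so the family was represented by Il17a and Il17f alone at this sensitivity. Among the other receptor chains, Il17rb, the chain for IL-25, was detected on day 0 only, at a log2 level of 5.71. Il17rc, the partner of IL-17RA for IL-17A and IL-17F, was detected by its brightest probe on days 7 and 12, at 5.61 and 5.26. Another Il17rc probe was detected on day 12 only, at 5.14, and the remaining probe in no library. Its detection on day 7 therefore rests on the brightest probe alone. Il17rd was not detected. Il17re, the chain for IL-17C, gave signals of 129, 90, 159.8, 349.9, 209 and 105.9. It was not detected on day 2, and was 5.62-fold higher on day 7 and 2.97-fold higher on day 12 than on day 0. A second Il17re probe gave 125, 94.6, 151.7, 338.8, 177.6 and 106.1, with the same highest day, and of the other 2 probes 1 was detected, on days 7 and 12. The summed intensity of 6 mast cell and basophil markers was also highest on day 7, at 6153 against 651 to 3433 on the other days, and its part in the Il17re level was not tested.

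**Figure D3:**
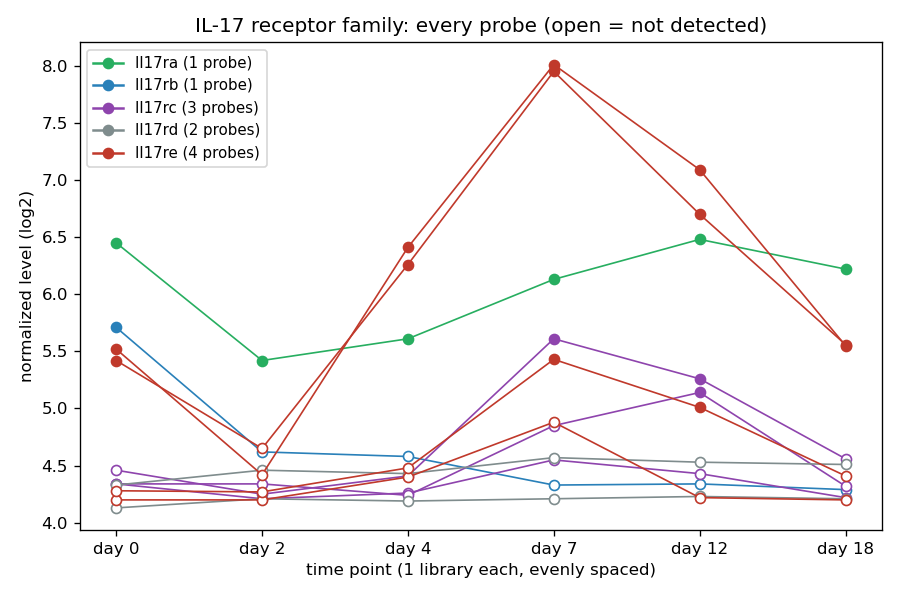
Normalized log2 level of every probe of the 5 IL-17 receptor genes at each time point, 1 library per point and evenly spaced, filled where detected and open where not. Il17ra is lowest on days 2 and 4, and Il17re is highest on day 7, at 8.01 for its brightest probe.

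Regulators of the Il17 locus came next. Of 20 detected regulators, 10 were higher and 1 lower on day 2 than on day 0, with a median log2 difference of 1.05, where 7.47% and 8.97% of all genes were called, and 0 were higher and 8 lower on day 18 than on day 2, with a median of -0.70, where 8.90% and 7.95% of all genes were called. The median of all detected genes was -0.01 and 0.01 in these comparisons. Irf4, a factor needed for Th17 differentiation, had log2 levels of 4.71, 10.61, 11.09, 9.41, 8.14 and 8.10. It was not detected on day 0 and was 3.21-fold lower on day 7 than on day 4. Hif1a, the hypoxia factor, was 20.8-fold higher on day 7 than on day 0 and still 4.57-fold higher on day 18. Egr2, induced by T cell receptor signals, was 9.28-fold higher on day 2 and 5.34-fold lower on day 7 than on day 4. Fosl2, an AP-1 subunit, was 12.1-fold higher on day 2 and 8.51-fold higher on day 18.

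Rora, which encodes RORalpha and was chosen after its values were seen, had log2 levels of 6.31, 7.96, 8.81, 8.07, 8.04 and 7.33. It was detected on days 12 and 18, when Il17a was not.

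Of 7 detected receptors for Th17-inducing cytokines, 1 was higher and 2 were lower on day 2 than on day 0, with a median log2 difference of 0.27. With 7.47% of all genes higher and 8.97% lower, counts this small say little of the list. Il12rb1, a chain of the IL-23 receptor and of the IL-12 receptor, had log2 levels of 4.80, 6.37, 7.47, 8.0, 8.45 and 8.52, and was 4.43-fold higher on day 18 than on day 2. Il6ra, which binds IL-6, was lower than day 0 on all later days, from 3.11-fold on day 4 to 6.21-fold on day 12. Il6st, the signalling chain it shares, was 2.62-fold lower on day 7 and not detected on days 12 and 18. Tgfbr2, a receptor for TGF-beta, was 2.17-fold lower on day 2 than on day 0 and 3.91-fold higher on day 18 than on day 2.

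Of 8 other detected products of Th17 cells, 6 were higher and 0 lower on day 2 than on day 0, and 0 were higher and 6 lower on day 12 than on day 7. The medians were 1.89 and -1.89, and the shares of all genes were 7.47% and 8.97% for the first comparison and 2.28% and 2.90% for the second. Il24, a cytokine of the IL-10 family, had log2 levels of 4.36, 11.16, 12.52, 10.92, 7.09 and 5.60, and was 14.2-fold lower on day 12 than on day 7. Lif, a cytokine of the IL-6 family, was 4.75-fold lower on day 12 than on day 7. Il10, an anti-inflammatory cytokine, was 2.88-fold higher on day 4 than on day 2 and 2.94-fold lower on day 12 than on day 7. Ccr6, the chemokine receptor that marks Th17 cells, had log2 levels of 8.97, 10.34, 9.01, 6.58, 4.36 and 4.25, was 5.37-fold lower on day 7 than on day 4, and was not detected on days 12 and 18.

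**Figure D4:**
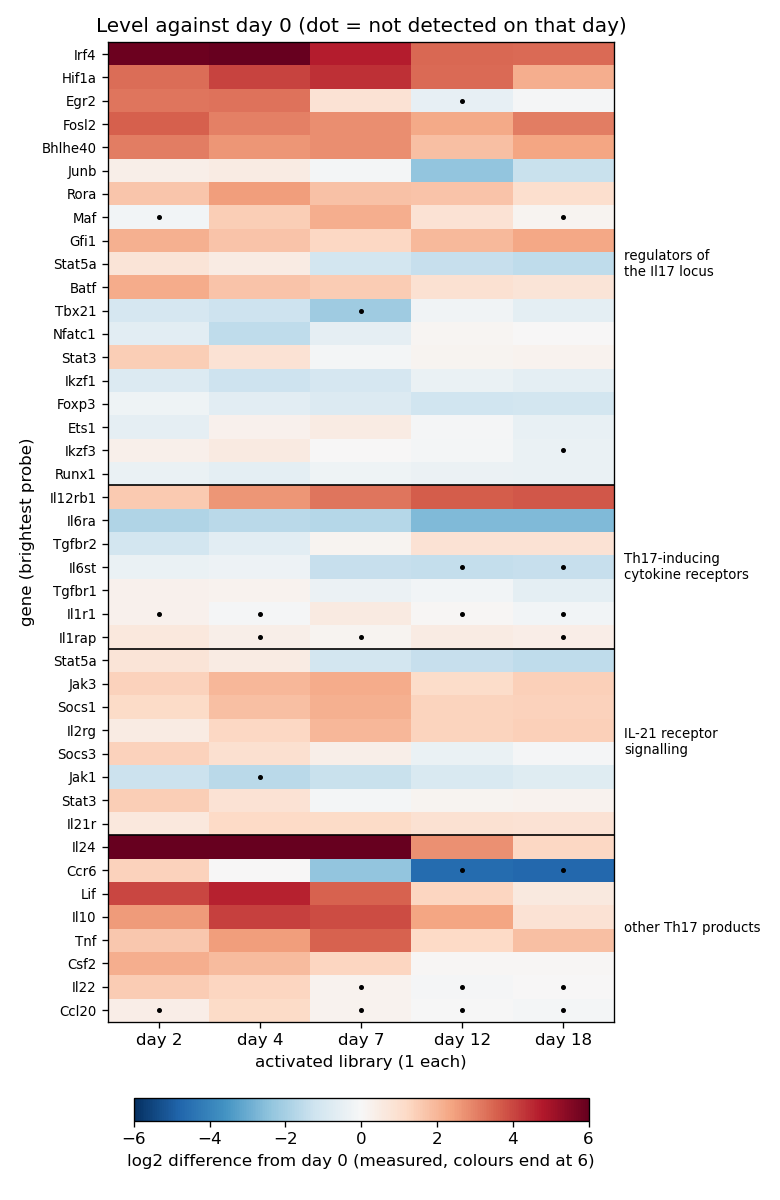
Log2 difference of each activated library from day 0 (colour, measured values that end at 6 in either direction) for detected genes of 4 lists, with a dot where that day's library did not detect the gene. Irf4 and Il24 are strongly higher on days 2 and 4, and Ccr6 is far lower on days 12 and 18, where it was not detected.

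Of 20 detected genes that signal downstream of the IL-17 receptor, 6 were higher and 0 lower on day 2 than on day 0, and 0 were higher and 6 lower on day 18 than on day 2. Their medians were 0.33 and 0.13, and the shares of all genes 7.47% and 8.97%, and 8.90% and 7.95%. Nfkbiz, an I-kappa-B family cofactor for IL-17 targets, had log2 levels of 8.72, 10.29, 8.64, 9.52, 7.34 and 7.64. Arid5a, which stabilizes cytokine mRNAs, was 5.11-fold higher on day 4 than on day 0. Traf4 and Tnfaip3, a competitor for the adaptor of the receptor and a deubiquitinase that restrains it, were 4.92-fold and 2.63-fold lower on day 18 than on day 2. Of 9 detected genes that IL-17 induces in its target cells, 6 were higher and 0 lower on day 2 than on day 0, and 4 were lower on day 7 than on day 4, where 2.43% of all genes were lower. The medians were 1.79 and -0.95. Lcn2, an antimicrobial protein that neutrophils also store, had log2 levels of 6.07, 10.82, 8.98, 6.81, 5.18 and 4.18. Cxcl1 and Cxcl2, neutrophil-attracting chemokines, were detected on days 2, 4 and 7 and on days 2 and 4. Mmp9, a protease of neutrophil granules, was 3.25-fold higher on day 2 than on day 0. The summed neutrophil markers given above were highest on day 2 as well, at 30140. Of 8 detected neutrophil markers, 5 were higher and 2 lower on day 2 than on day 0, where 7.47% and 8.97% of all genes were. Their part in the values of the IL-17 targets was not tested.

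Of 9 detected genes of IL-21 receptor signalling, Il21r among them, 4 were higher and 1 lower on day 2 than on day 0, and 4 were higher and 1 lower on day 18. Of all genes 7.47% were higher and 8.97% lower on day 2, and 7.93% and 8.69% on day 18, and the list medians were 0.79 and 0.86. Stat5a, a signal transducer of the common gamma chain cytokines, was 2.85-fold lower on day 18 than on day 0. Jak3, the kinase bound to the common gamma chain, and Socs1, a feedback inhibitor, were 4.74-fold and 4.35-fold higher on day 7 than on day 0. Of 5 detected target genes of IL-21, 3 were higher and 0 lower on day 2, and 0 were higher and 2 lower on day 12 against day 7, where 2.28% of all genes were higher and 2.90% lower. The medians were 1.40 and -0.75. Maf, a factor that drives Il10 and Il21, had log2 levels of 4.63, 4.48, 6.10, 6.82, 5.50 and 4.80, with detection on days 4, 7 and 12. Batf and Socs3 were 4.75-fold and 2.64-fold higher on day 2 than on day 0.

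The genes whose profiles were most like those of the cytokines were taken from 4308 named genes that were detected and varied at least 2-fold. Likeness is the root mean square log2 difference between mean-centred profiles over the 6 libraries, a description with no test. For Il17a the 5 nearest were Pdpn at 0.38, Timp1 at 0.53, Mcpt1 at 0.57, Cstdc4 at 0.65 and Inhba at 0.78. Pdpn encodes podoplanin, a membrane glycoprotein, and had log2 levels of 4.5, 10.56, 11.15, 10.10, 5.33 and 4.25. Timp1 inhibits matrix metalloproteinases, Mcpt1 is a mast cell protease, Inhba encodes the activin A subunit, and Cstdc4 belongs to a cystatin family with close copies that a probe may not separate. For Il17f they were Pdpn at 1.33, Timp1 at 1.36, Il24 at 1.42, Il17a at 1.53 and Cstdc4 at 1.62.

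Il21 had a different set of 5, Smox at 0.35, Insl5 at 0.43, Itga3 at 0.45, and Whrn and Espn at 0.47. Smox, a spermine oxidase, was detected throughout, at 8.36, 10.95, 11.40, 10.97, 7.86 and 7.71. Itga3 encodes an integrin chain, Insl5 a peptide hormone of the insulin family, and Whrn and Espn encode proteins of the actin bundles of hair cells. The sets for Il17a and Il17f share 3 genes, Pdpn, Timp1 and Cstdc4. With Pearson's correlation as the measure, 2 of the 5 for Il17a, 1 of the 5 for Il17f and 0 of the 5 for Il21 were named again. With undetected values set to the detection limit these counts were 4, 5 and 1 of 5, so the nearest genes depend on the measure and, for Il21, on values below detection.

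**Figure D5:**
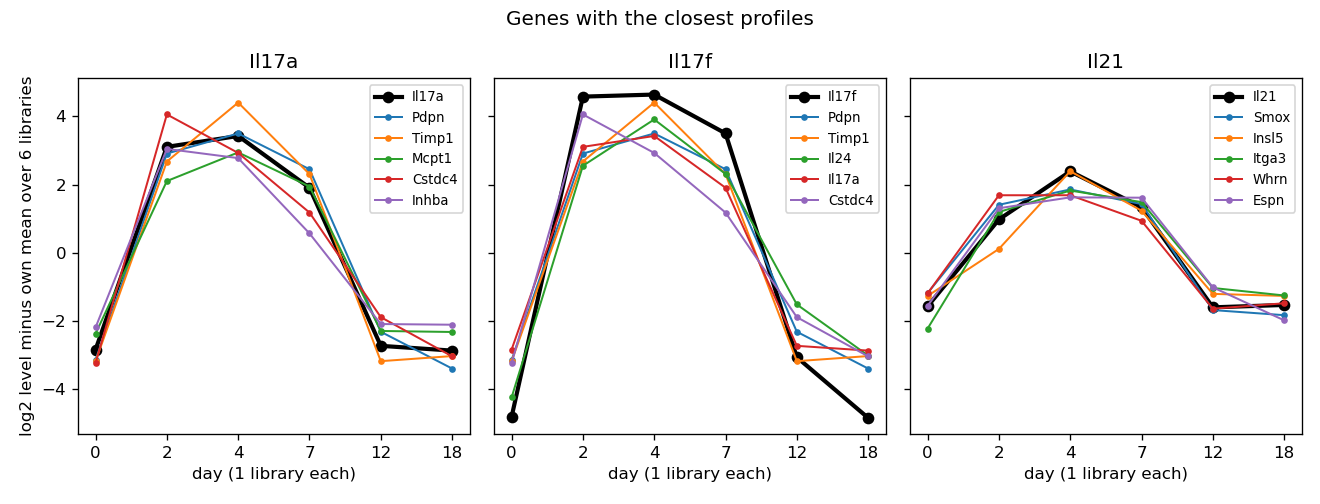
Mean-centred log2 levels by day, evenly spaced, of Il17a, Il17f and Il21 and of the 5 genes nearest to each, 1 library per point. The genes near Il17a and Il17f sit high on days 2, 4 and 7 and low on days 0, 12 and 18, and those near Il21 follow the same days over a smaller range.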

How the data were processed

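The arrays read 6 libraries of total RNA, extracted with Trizol, cleaned with DNase treatment and labelled with biotin, per the labels' protocols. The 45281 probes of the table define the array here, although the labelling protocol is called MouseRef-8. The deposited table gives an intensity per probe and array, not normalized per the file headers. Beside each intensity stands the deposited detection p-value. The authors also deposited normalized intensity values, made by a method not given in the sources used here. Neither slide nor batch is recorded in the files.

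Normalization used neqc from limma 3.58.1 under R 4.3.3 (normexp from the detection p-values, quantile normalization, offset of 16, log2) and handled with Python 3.11.15, pandas 2.3.3, numpy 2.4.6 and matplotlib 3.10.9. Names were matched to RefSeq symbols of GRCm38.p6: of 30854, 16223 matched a symbol, 5679 a synonym, and 8952 kept the name in the file. The probe brightest on average stood for its gene. The number of arrays, 1 per time point, limits the precision, so no model was fitted and no p-value computed. The calling rule was tried on simulated data, with changes placed only in genes detected in all 6 libraries. The 3 cytokines and Il21r are not such genes, so the trial says little of their calls against day 0. Summed marker intensities are linear, with the offset taken off.

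The members and the 22 gene lists, with 201 genes of which 14 are in more than 1 list, were chosen with earlier results of these data known. Named were every member probe, the 5 genes nearest in profile to each cytokine, and in each pathway list the 4 measured genes with the widest range. Unnamed gene models were left out, and some genes of the lists are counted but not reported by name here. The alternatives were median, reference gene and T cell identity scaling, no background correction, an offset of 50, a detection p below 0.05, a 1.5-fold threshold, the mean of a gene's probes, for profile likeness Pearson's correlation, undetected values at the detection limit and each day left out, the deposited normalized values and, chosen after seeing the data, normalization without the day 0 library.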

Additional observations from a re-analysis of the deposited data

How the results depend on the processing

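With 1 library per time point, no spread between samples, cultures or animals was available, and each library had no second one to leave out. No paired analysis was possible because no time point has more than 1 library and no result comes from a test. No called member difference changed sign, while Il17ra on day 12 against day 0, not called at 0.03, was -1.25 under T cell identity scaling. Scaling to T cell identity genes moved 32 of 43 member differences by more than the disagreement between probes of a gene, no background correction 26, an offset of 50 moved 18, the mean of probes 4 and a detection p below 0.05 moved 1. Median scaling, reference gene scaling and the deposited values moved 0 of 43, and normalization without the day 0 library, chosen after seeing the data, 0 of 23. The deposited values, with the offset of 16 added, gave nearly the same member differences from the same arrays. For Il17a on day 2 against day 0 both gave 5.38, so the deposited values are no independent check. Under T cell identity scaling, members higher were 0 on day 12 against day 0 and 0 on day 4 against day 2, and 1 member, Il17ra, was lower than day 0 on each of days 4, 7, 12 and 18. Without background correction and with an offset of 50 alike, members higher were 0 on day 12 against day 0, and members lower were 0 on day 2 against day 0 and 0 on day 18 against day 12. Without background correction, 2 members in place of 3 were higher on day 2 against day 0 and lower on day 18 against day 2, and 2 were lower on day 7 against day 4, as with an offset of 50. With reference gene scaling 1 member was lower on day 4 against day 0, and 1 on day 7 against day 4. At 1.5-fold, members higher were 2 on day 4 against day 2 and 1 on day 18 against day 2, and 1 was lower on day 4 against day 0. At that threshold Il21r was also higher than day 0 on days 4 and 7, with lower bounds of 1.76-fold and 1.67-fold. With a detection p below 0.05, Il21r was called higher than day 0 on the same days at 2-fold. Over all genes, T cell identity scaling put the median log2 difference from day 0 at between -0.46 and -1.34. On day 2 this scaling called 501 higher and 2547 lower, in place of 893 and 1072. Higher calls were then 16.4% of all calls on that day, in place of 45.4%. On the later days this scaling called 6137 to 7521 of 11954 genes lower than day 0. Reference gene scaling put the median at -0.19 on day 2, with 628 higher and 1518 lower, and called 533 higher and 211 lower on day 7 against day 4 in place of 303 and 291. No background correction called 469 higher and 532 lower on day 2. When a day was left out, 2 to 5 of the nearest genes of Il17a, 4 to 5 of Il17f and 2 to 4 of Il21 were named again. The low signals of Il21r and Il17ra limit what can be read from them.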

Other observations

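IL-21 belongs to the cytokines that share the common gamma chain, and the other members are described here. Of 6 such cytokines on the array, 4 were detected, Il21 among them. Il2, the T cell growth factor, had log2 levels of 4.97, 10.51, 7.55, 4.65, 4.39 and 4.27 over days 0, 2, 4, 7, 12 and 18. It was 46.5-fold higher on day 2 than on day 0 and 7.82-fold lower on day 4 than on day 2, the interval in which Il21 was 2.66-fold higher, and it was not detected from day 7 on. Il15 was 3.74-fold lower on day 4 than on day 0, and Il4 had levels of 5.46, 6.19, 5.27, 6.14, 5.74 and 4.40. Of 7 detected receptor chains of the family, 3 were higher and 0 lower than day 0 on day 4, where 8.10% and 9.44% of all genes were called, and the same counts held on day 18, where 7.93% and 8.69% were. Il2ra, the IL-2 receptor alpha chain, was 48.4-fold higher on day 4 and 12.8-fold higher on day 18 than on day 0. Il7r, the IL-7 receptor chain of resting T cells, was 3.06-fold lower on day 2 than on day 0 and 4.94-fold higher on day 18 than on day 2. Il2rb was 4.83-fold and Il2rg, the common gamma chain itself, 2.67-fold higher on day 18 than on day 0. A second Il2rg probe gave signals of 257.9, 119.9, 157.5, 328.2, 194.5 and 202.1, against 436.5, 463.8, 834.5, 1370.4, 812.6 and 629.5 for the brightest. Its log2 levels were 7.22, 5.73, 6.36, 7.89, 6.93 and 7.55, below its own day 0 on days 2, 4 and 12 and less than 2-fold above it on days 7 and 18, so the probes disagree and the higher Il2rg level rests on the brightest.

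IL-21 is also the signature cytokine of follicular helper T cells. Of 5 detected genes of that state, 1 was higher and 0 lower on day 2 than on day 0, and 2 were higher on day 18, where 7.47% and 7.93% of all genes were higher. The day 2 count is the 1 gene Icos, and counts this small say little of the list. Icos, a costimulatory receptor, was 20.6-fold higher on day 7 than on day 0. Bcl6, the defining factor of that state, had log2 levels of 7.28, 7.29, 7.57, 6.37, 6.75 and 7.24 and was 2.29-fold lower on day 7 than on day 4. Cxcr5, the follicle homing receptor, stood at 5.92, 6.46, 5.63, 4.80, 6.08 and 5.46, and Tnfsf8, the CD30 ligand, at 4.49, 5.52, 5.75, 6.02, 6.03 and 5.90.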
